A study of Rattus norvegicus with 4 samples.

Results

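The 5 chemokine ligands Cxcl12, Ccl2, Cx3cl1, Cxcl13 and Cxcl10 and their receptors Cxcr4, Ccr2, Cx3cr1, Cxcr5 and Cxcr3 were followed in rat spinal dorsal horn, the part of the cord where sensory fibres end. They were found by the transcript accession that each probe carries on the array, matched to rat gene symbols, whatever their signals were. The search gave 11 probes of 10 genes among 30367 probes of 26650 genes. Cxcl12 had 2 probes and the other genes 1 each. The ligands and receptors were set side by side on 2 arrays of oxaliplatin-treated rats and 2 arrays of vehicle-treated rats.

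Chemokines are small secreted proteins that act through receptors coupled to G proteins and draw cells along a gradient. CX3CL1 differs in that it is made as a membrane protein, largely by neurons, and is shed by proteases. Each of these pairs has been studied in rodent models of persistent pain, where ligands made by neurons or astrocytes are described as acting on microglia, astrocytes or neurons of the cord. CXCL12 acts on CXCR4 and keeps progenitor and immune cells in place. CCL2 draws monocytes and acts on CCR2, CX3CR1 marks microglia, CXCL13 guides B cells through CXCR5, and CXCL10 is induced by interferon and draws T cells through CXCR3.

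All rats were male, 6 weeks old per the labels, and tissue was taken on day 10. No strain, genetic change, dose, route or pooling of animals is given in the labels. Oxaliplatin is a platinum drug against cancer that causes painful neuropathy. Per the labels each array carried Cy5-labelled RNA of oxaliplatin-treated or vehicle-treated rats beside Cy3-labelled RNA of untreated rats. The labels give no exchange of dyes, so dye and sample cannot be told apart. The text on labelling speaks of Cy3 only, so a difference is given here as a difference in the Cy5/Cy3 ratio of the arrays, oxaliplatin minus vehicle. The labels call the arrays of a group biological replicates. The 2 oxaliplatin arrays lay on slide 1 and the 2 vehicle arrays on slide 2, so slide and group cannot be told apart. With 2 arrays a group, the number of arrays limits the precision of every value below.

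Array-wide Cy3 signal was uneven. In the order oxaliplatin replicate 1, replicate 2, vehicle replicate 1, replicate 2, its median was 494, 283.5, 564 and 530 scanner units, against Cy5 medians of 913 to 1023.5. Spots well above background made up 82.6% to 85.4% of spots in Cy5 and 76.8% to 88.1% in Cy3. All 10 neuron markers and all 10 astrocyte markers measured were well above background on every array in both channels, and so were all 14 microglia markers. For the 13 sensory ganglion and Schwann cell markers measured, the median log2 Cy5/Cy3 ratio lay between 2.82 and 3.24 on the 4 arrays. After normalisation of each channel (Aquantile, back on a linear scale) their summed Cy5 signal was 221017 to 235267 on oxaliplatin and 251213 to 255756 on vehicle arrays, and their summed Cy3 signal 17326.9 to 21201 and 15801.6 to 22996.3. All 13 were called higher in Cy5 (limma, adjusted p under 0.05), against 29.3% of all genes. Of them, Mrgprd was well above background in Cy3 on vehicle replicate 1 only. The part of these markers in the ratios of the chemokines was not tested. In tissue RNA, fewer cells of a type and less RNA per cell cannot be told apart.

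Chemokine and receptor signals were measurable for nearly all of the 10 genes. Cy5 was well above background in at least 0.5 of a probe's spots on all 4 arrays for 9 of 10 genes, the exception being Cxcr3, and Cy3 for 7 of 10, the exceptions being Cxcr3, Ccr2 and Cxcl13. All 10 passed the filter, which asked for Cy5 above background on at least 2 arrays. Cxcr3 passed only through the vehicle arrays.

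**Figure D1:**
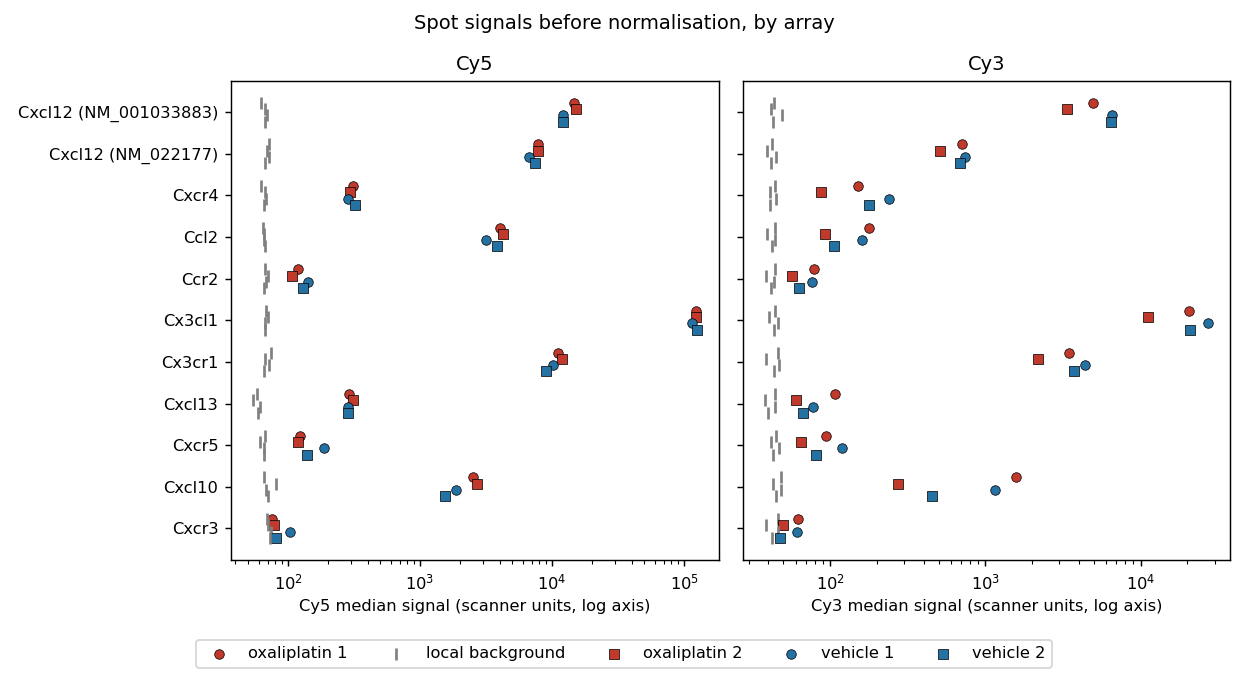
Median spot signal in scanner units on a log axis, Cy5 in the left panel and Cy3 in the right, for each probe of the 10 genes on each of the 4 arrays (red, oxaliplatin; blue, vehicle; circle, replicate 1; square, replicate 2), before any normalisation. Grey ticks are the local background of the same spots. The Cxcr3 points lie next to these ticks in both channels, and the Cy3 points of oxaliplatin replicate 2 lie lowest or nearly so for most probes.

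Cxcr4 and the brighter of the Cxcl12 probes had higher ratios on the oxaliplatin arrays, while the other Cxcl12 probe had lower ones, and none passed the test. The brighter Cxcl12 probe, designed on NM_001033883, gave Cy5 signals of 14524 and 15185 units on the oxaliplatin arrays and 12109.5 and 12077 on the vehicle arrays, and Cy3 signals of 4978 and 3375.5 against 6575 and 6411. After normalisation its log2 Cy5/Cy3 ratio was 0.32 and 0.12 on the oxaliplatin arrays and 0.037 and -0.14 on the vehicle arrays. Both oxaliplatin arrays lay above both vehicle arrays. The ratio differed by 0.27 ± 0.13 (SE, n = 2 arrays per group, 95% interval -0.046 to 0.59, limma adjusted p = 0.397). By channel, normalised Cy5 differed by 0.086 and normalised Cy3 by -0.19.

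The other Cxcl12 probe, designed on NM_022177, behaved differently. Its Cy5 signals were 7808 and 7879.5 units on the oxaliplatin arrays and 6699.75 and 7388 on the vehicle arrays, with Cy3 signals of 709 and 511 against 744 and 683.5. The log2 ratio was 2.40 and 2.01 on the oxaliplatin arrays and 2.49 and 2.58 on the vehicle arrays, so here both oxaliplatin arrays lay below both vehicle arrays. The difference was -0.33 ± 0.16 (SE, n = 2 per group, limma adjusted p = 0.382, each probe fitted on its own). Averaged over the 4 arrays, Cy5 exceeded Cy3 by 5.18-fold at this probe and by 1.06-fold at the brighter one. The gap between the probes was 2.08 and 1.89 on oxaliplatin arrays and 2.46 and 2.72 on vehicle arrays, a mean of 2.29 ± 0.37 (SD, n = 4 arrays). Probes of a gene lay that far apart for 9 of 2439 genes with at least 2 probes (0.369%), where the median range was 0.28. Between groups the gap differed by -0.60 (oxaliplatin minus vehicle), with an exact permutation p of 0.333, the smallest that 2 against 2 arrays allow. The probes therefore gave opposite signs for the group difference of Cxcl12, and their mean differed by -0.031.

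Cxcr4, the receptor of CXCL12, gave Cy5 signals of 312.5 and 297 units on the oxaliplatin arrays and 286.75 and 323.5 on the vehicle arrays. Its Cy3 signals were 151.5 and 87.25 on the oxaliplatin arrays and 238 and 177 on the vehicle arrays. Once normalised, the log2 ratio was 0.30 and 0.40 on the oxaliplatin arrays against -0.37 and 0.075 on the vehicle arrays, and the groups did not overlap. The difference was 0.50 ± 0.17 (SE, n = 2 per group, 95% interval 0.10 to 0.90, unadjusted p = 0.0211, limma adjusted p = 0.307), and it was 0.28 without vehicle replicate 1. The channels split it unequally: normalised Cy5 differed by 0.063 ± 0.12 and overlapped between groups, while normalised Cy3, which held untreated rats per the labels, differed by -0.44 ± 0.16 (adjusted p = 0.217) and did not overlap. Cxcr4 was the gene of the 10 with an unadjusted p under 0.05, a mark that 14.6% of all 22817 genes tested passed, and it stood at rank 1563 by p. Ackr3, the atypical receptor that takes up CXCL12, had ratios of 0.74 and 0.54 on the oxaliplatin arrays and 0.71 and 0.41 on the vehicle arrays. Its groups overlapped (difference 0.082 ± 0.15), and its mean Cy5/Cy3 ratio was 1.52-fold (limma adjusted p = 6.5e-04).

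**Figure D2:**
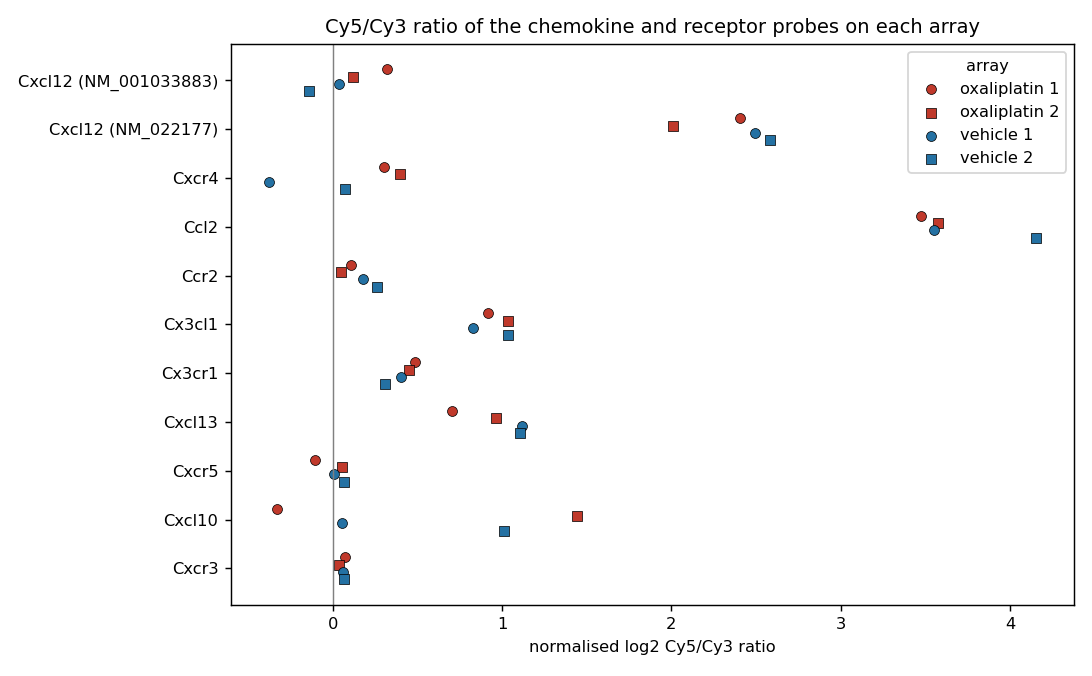
Normalised log2 Cy5/Cy3 ratio of each of the 11 probes on each of the 4 arrays (red, oxaliplatin; blue, vehicle; circle, replicate 1; square, replicate 2), with the grey line at 0. Ccl2 lies between 3.48 and 4.15, the Cxcl12 probes lie apart by a mean of 2.29, and Cxcl10 spreads from -0.33 to 1.44 within the oxaliplatin group alone.

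Ccl2 had by far the highest Cy5/Cy3 ratio of the 10 genes, in both groups alike. CCL2 is the monocyte attractant that injured sensory neurons and astrocytes are known to release. Its probe was printed 10 times on each array, and the mean Cy5 signal was 3995 and 4246 units on the oxaliplatin arrays and 3161 and 3798 on the vehicle arrays. Its mean Cy3 signal was only 179 and 93.4 units on the oxaliplatin arrays and 162 and 106.6 on the vehicle arrays, over a local background of 39.5 to 44.4, yet all 10 spots were well above background in both channels on each array. The log2 ratio was 3.48 and 3.57 on the oxaliplatin arrays and 3.55 and 4.15 on the vehicle arrays, or 11.1-fold, 11.9-fold, 11.7-fold and 17.8-fold. The groups overlapped, and vehicle replicate 2 was highest. The 10 spots of an array spread by an SD of 0.084 to 0.14. Averaged over the 4 arrays the ratio was 3.69 ± 0.10 (SE, 95% interval 3.45 to 3.93, 12.9-fold, limma adjusted p = 1.2e-06), above 0 on 4 of 4 arrays, and 41 genes (0.18%), Ccl2 included, were at least as high. The scanner software's ratio, which subtracts background fully, was higher at 14.9-fold, 23.9-fold, 16.3-fold and 30.6-fold.

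**Figure D3:**
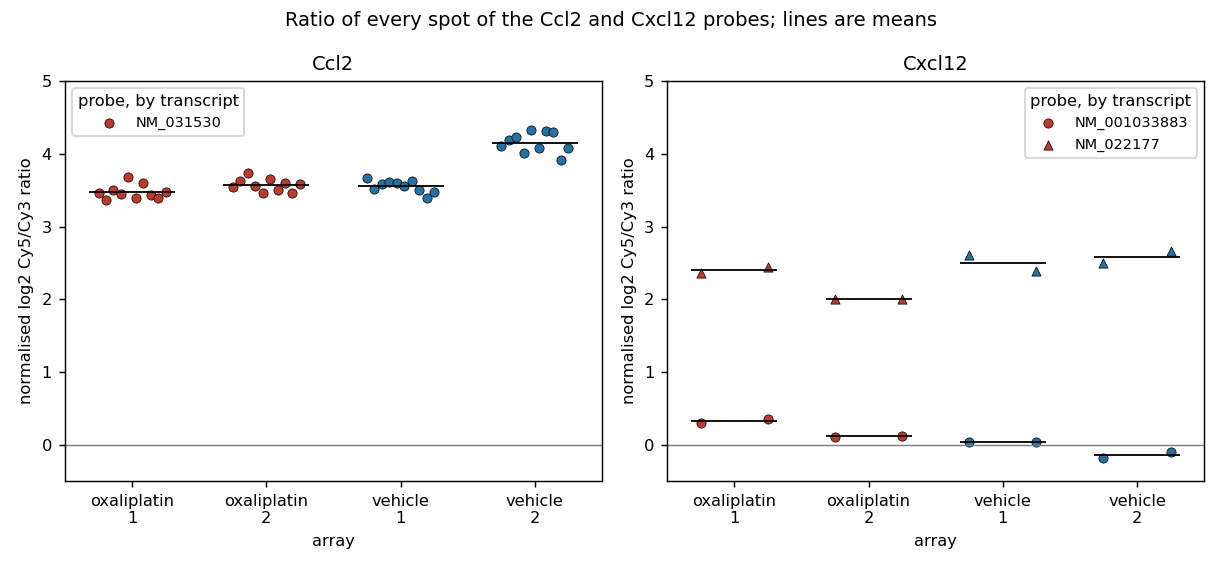
Normalised log2 Cy5/Cy3 ratio of every spot of the Ccl2 probe (left, 10 spots per array) and of both Cxcl12 probes (right, 2 spots per probe and array, circles NM_001033883 and triangles NM_022177) on the 4 arrays, with black lines at the mean of each array. The Ccl2 spots of vehicle replicate 2 lie between 3.91 and 4.33, above every spot of the other 3 arrays, and the Cxcl12 probes do not meet on any array.

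The ratio of Ccl2 differed between groups by -0.33 ± 0.20 (SE, n = 2 per group, 95% interval -0.80 to 0.15, limma adjusted p = 0.475). That value rested on vehicle replicate 2, without which it was -0.028, and it was 0.19 with the ratios scaled between arrays. Normalised Cy5 was 0.12 ± 0.095 higher and normalised Cy3 0.45 ± 0.19 higher on the oxaliplatin arrays, each without overlap and without passing the test (adjusted p = 0.495 and 0.254). Ccl7 and Ccl12, further ligands of CCR2 named here for that reason, had mean ratios of 0.60 and 0.45.

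Ccr2, the receptor of CCL2 on monocytes, was faint. Its Cy5 signals were 118 and 107.25 units on the oxaliplatin arrays and 142.5 and 129.5 on the vehicle arrays, and its Cy3 signals were 78.75 and 56.5 against 77 and 62.75. Cy3 was well above background in 1 and 0 of 2 spots on the oxaliplatin arrays and in 2 of 2 on each vehicle array. On the log2 scale the ratio was 0.11 and 0.048 on the oxaliplatin arrays and 0.18 and 0.26 on the vehicle arrays. Both oxaliplatin arrays lay lower, by -0.14 ± 0.11 (SE, n = 2 per group, limma adjusted p = 0.583), a value that was 0.094 with the scanner software's ratio and -0.62 with median centring in place of loess (unadjusted p = 0.0263, adjusted p = 0.291). The mean ratio of 0.15 (adjusted p = 0.0615) stood far below that of its ligand, and was -0.23 with median centring. Of the 12 monocyte, macrophage and neutrophil markers tested, 4 were called higher in Cy5 and 2 lower, against 29.3% and 26.3% of all genes. Their median ratio was 0.086. The brightest of them were Lyz2 at 1.16, Vcan at -0.31 and Cd14 at -0.49.

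Cx3cl1 and Cx3cr1, the pair of neuron and microglia, were both called higher in Cy5 and did not pass the test between groups. Cx3cl1 gave Cy5 signals of 123731 and 122166 units on the oxaliplatin arrays and 115058 and 124264 on the vehicle arrays. Its Cy3 signals were 20604.5 and 11236.2 on the oxaliplatin arrays and 27329.8 and 20897.8 on the vehicle arrays. All spots of the probe were well above background in both channels. The log2 ratio was 0.92 and 1.03 on the oxaliplatin arrays and 0.83 and 1.03 on the vehicle arrays, and the groups overlapped. They differed by 0.045 ± 0.13 (SE, n = 2 per group, 95% interval -0.26 to 0.35, limma adjusted p = 0.898). The 4 arrays gave a mean of 0.95 ± 0.064 (SE), a 1.94-fold excess in Cy5 (limma adjusted p = 5.1e-05).

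Cx3cr1 gave Cy5 signals of 11010.5 and 11979.5 units on the oxaliplatin arrays and 10140 and 8991.5 on the vehicle arrays. Its Cy3 signals were 3486 and 2172.5 on the oxaliplatin arrays and 4377 and 3705 on the vehicle arrays. Normalised, the log2 ratio was 0.49 and 0.45 on the oxaliplatin arrays and 0.41 and 0.31 on the vehicle arrays. Both oxaliplatin arrays lay higher, by 0.11 ± 0.11 (SE, n = 2 per group, 95% interval -0.16 to 0.38, limma adjusted p = 0.677). The mean ratio was 0.41 ± 0.057 (SE), a 1.33-fold excess in Cy5 (limma adjusted p = 0.0011). The 14 other microglia markers tested stood the other way, with 12 below 0, 8 called lower and 0 called higher in Cy5 (against 26.3% and 29.3% of all genes), and a median ratio of -0.44. Of their brightest members, C1qb and Aif1 had mean ratios of -0.12 and -0.0076 and were not called. Between groups the microglia list had a median difference of -0.012, with 7 genes higher and 7 lower.

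The proteases that release or act on CX3CL1 were looked at by name. Adam17 had ratios of -0.83 and -0.24 on the oxaliplatin arrays and -1.07 and -1.37 on the vehicle arrays. The difference was 0.69 ± 0.21 without overlap (unadjusted p = 0.0149, limma adjusted p = 0.300). By channel, Adam17 differed by -0.056 in normalised Cy5, with overlap, and by -0.74 in normalised Cy3, without overlap. Adam10 differed by -0.17 ± 0.16 and Ctss, the microglial protease cathepsin S, by -0.031 ± 0.22, both with overlapping groups.

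Cxcl13, the B cell attractant, was faint in Cy3 and clear in Cy5. Its Cy5 signals were 290.5 and 311.75 units on the oxaliplatin arrays and 287 and 283.5 on the vehicle arrays. Its Cy3 signals were 108 and 60.75 on the oxaliplatin arrays and 77.5 and 66.5 on the vehicle arrays, with 0 of 2 spots well above background on oxaliplatin replicate 2. The log2 ratio was 0.71 and 0.96 on the oxaliplatin arrays and 1.12 and 1.11 on the vehicle arrays, and the groups did not overlap. The difference was -0.28 ± 0.13 (SE, n = 2 per group, 95% interval -0.59 to 0.034, limma adjusted p = 0.381), and -0.060 with the scanner software's ratio. Normalised Cy5 differed by 0.13 ± 0.081 and normalised Cy3 by 0.41 ± 0.15 (limma adjusted p = 0.221), both higher on the oxaliplatin arrays without overlap. The lower ratio thus went with a Cy3 that was higher on both oxaliplatin arrays after normalisation only. Before it, Cy3 on oxaliplatin replicate 2 was the lowest of the 4 arrays and not well above background, which limits the normalised value there. Over the 4 arrays the ratio was 0.97 ± 0.066 (SE), a 1.96-fold excess in Cy5 (limma adjusted p = 5.2e-05). By the scanner software's ratio the mean was 2.04.

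Cxcr5, its receptor on B cells, gave Cy5 signals of 123.5 and 118.5 units on the oxaliplatin arrays and 187.25 and 138.5 on the vehicle arrays, and Cy3 signals of 93.5 and 64.5 against 119.25 and 81.75. The 2 spots of vehicle replicate 2 disagreed, at 204 and 73 in Cy5 and 118.5 and 45 in Cy3. On the log2 scale the Cxcr5 ratio was -0.10 and 0.054 on the oxaliplatin arrays and 0.0084 and 0.067 on the vehicle arrays, with overlapping groups. The difference was -0.061 ± 0.12 (SE, n = 2 per group, 95% interval -0.35 to 0.22, limma adjusted p = 0.844) and the mean ratio was 0.0069. Of 12 lymphocyte markers with a probe, Cd3e, Cd2, Cd8a, Cd79b and Blk were well above background in Cy5 on no array. The brightest of the 7 tested were Cd3d, Cd8b and Pax5, with mean ratios of 0.27, 0.35 and 0.15. The sum of normalised Cy5 signals over the 12 was 3011.56 to 3214.84 on the oxaliplatin and 3458.89 to 3480.29 on the vehicle arrays.

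Cxcl10 varied most among the 10 genes, and it did so within each group. The Cy5 signals were 2509 and 2692 units on the oxaliplatin arrays and 1858 and 1552.5 on the vehicle arrays. The Cy3 signals were 1570.25 and 274.5 on the oxaliplatin arrays and 1154.5 and 450.75 on the vehicle arrays. Its log2 ratio was -0.33 and 1.44 on the oxaliplatin arrays and 0.054 and 1.01 on the vehicle arrays. Oxaliplatin replicate 2 and vehicle replicate 2 were the high arrays, the groups overlapped, and duplicate spots of an array differed with an SD of 0.018 to 0.099. A range over 4 arrays as wide as this occurred in 80 of the 22817 genes (0.351%), Cxcl10 included. The ratio differed by 0.026 ± 0.56 (SE, n = 2 per group, 95% interval -1.31 to 1.36, limma adjusted p = 0.988). In Cy5 alone the oxaliplatin arrays were both higher, by 0.44 ± 0.14 (95% interval 0.065 to 0.82, unadjusted p = 0.0308, limma adjusted p = 0.218), a mark that 20.5% of all genes passed in that channel. Without vehicle replicate 1 it was 0.61 (limma adjusted p = 0.0218), in a setting where 5578 genes were called. In Cy3 alone the groups overlapped, at 0.42 ± 0.65. The mean ratio of 0.54 ± 0.28 (SE, limma adjusted p = 0.139) was above 0 on 3 of 4 arrays.

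Interferon response genes also differed between arrays of a group. The median of their 16 ratios was -0.22 on oxaliplatin replicate 1, 1.04 on oxaliplatin replicate 2, 0.087 on vehicle replicate 1 and -0.48 on vehicle replicate 2. Cxcl10 was thus higher on the oxaliplatin array where these medians were higher, and higher on the vehicle array where they were lower. Among the brightest of the list were Mx2 (0.24 and 0.56 on oxaliplatin, 0.41 and -0.16 on vehicle arrays) and Stat2 (-0.13 and 0.33, then 0.057 and -0.35). Between groups 13 of 16 were higher and 3 lower with a median difference of 0.58, and 3 of the 16 did not overlap (18.8%, against 49.2% of all genes). The summed normalised Cy3 signal of the list was 114644 and 59736.2 on the oxaliplatin arrays and 79182 and 118545 on the vehicle arrays, while its summed normalised Cy5 signal stayed within 93548.6 to 106597. The part of interferon in the spread of Cxcl10 was not tested. Cxcl9 and Cxcl11 share CXCR3 with CXCL10 and are named for that. Cxcl9 had ratios of -0.098 and 0.38 on the oxaliplatin arrays and 0.42 and 0.29 on the vehicle arrays, and Cxcl11 had -1.07 and 0.46, then 0.71 and 0.00040. All 3 ligands were lowest on oxaliplatin replicate 1. Cxcl9 and Cxcl11 were faint, and on oxaliplatin replicate 2 their Cy3 signals of 62.5 and 58 units were not well above background.

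**Figure D4:**
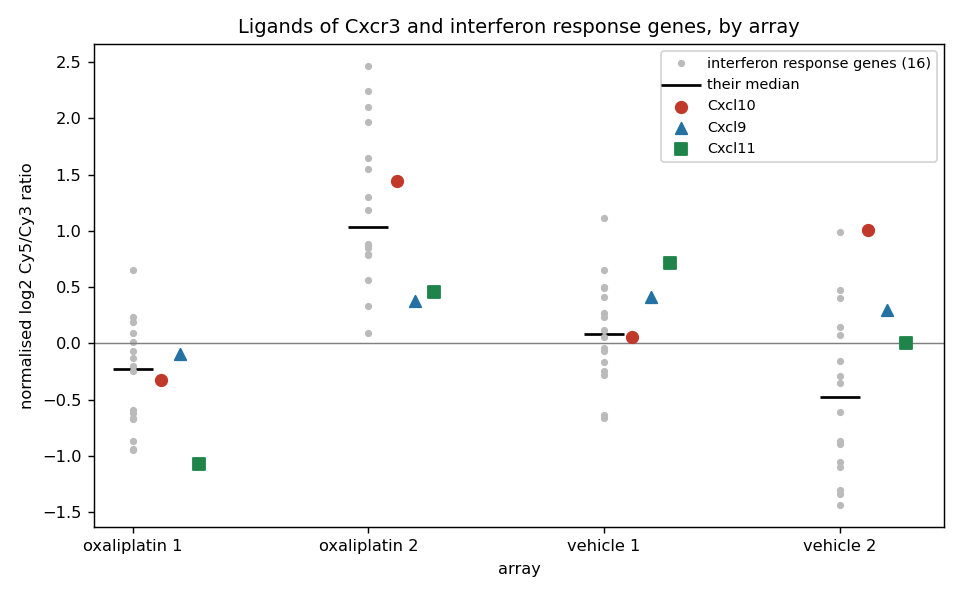
Normalised log2 Cy5/Cy3 ratio on each of the 4 arrays of the 16 interferon response genes (grey points, black line at their median) and of Cxcl10 (red circle), Cxcl9 (blue triangle) and Cxcl11 (green square). Oxaliplatin replicate 2 has the highest median, 1.04, and the highest Cxcl10, 1.44, while on vehicle replicate 2 the median is -0.48 and Cxcl10 is 1.01.

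The sequence before the start of Cxcl10 is shown because Cxcl10 is the gene of the 10 that varied most and because its promoter is the one in which both motifs searched were found. The 250 bases before the RefSeq start sites of build GRCr8 were searched on both strands for an interferon response motif (GAAA, any 2 bases, GAAA) and an NF-kB motif (GGGA, any 2 bases, TTCC). The RefSeq table had an entry for 8 of the 10 genes, all but Ccl2 and Cxcr5. Of these 8, Cxcl10 held each motif and the other 7 held neither. Among 33469 promoters of this length 3.41% held the interferon response motif, 1.08% the NF-kB motif and 0.0508%, or 17, both. In Cxcl10 (chr14:15988816-15989065, + strand, 5′ to 3′) capitals mark the matches, first the interferon response motif and then 2 places with the NF-kB motif, the latter with overlapping matches on both strands. A match is a run of letters and not a shown site of binding.
Cxcl10: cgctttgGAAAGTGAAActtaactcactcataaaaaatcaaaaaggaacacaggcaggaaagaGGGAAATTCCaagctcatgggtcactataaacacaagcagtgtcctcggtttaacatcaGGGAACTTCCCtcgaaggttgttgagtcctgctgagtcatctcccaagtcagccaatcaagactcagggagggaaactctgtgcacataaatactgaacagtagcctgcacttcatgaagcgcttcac

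Of the 16 interferon response genes 10 had an entry and 5 of these held the interferon response motif, shown here with 10 bases on either side and the match in capitals, for comparison with Cxcl10. They are Ifit3 (chr1:241527272-241527301, + strand), Irf7 (chr1:205800073-205800102, - strand), Oas1a (chr12:41330415-41330450, + strand), Rsad2 (chr6:48788248-48788277, - strand) and Gbp2 (chr2:234005686-234005715, + strand). Where the motif lies on the other strand it reads TTTC, any 2 bases, TTTC.
Ifit3: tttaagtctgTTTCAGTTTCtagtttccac
Irf7: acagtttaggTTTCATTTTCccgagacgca
Oas1a: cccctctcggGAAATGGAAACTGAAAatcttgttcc
Rsad2: ctggttcaacTTTCATTTTCagaaaacaga
Gbp2: agttttttagTTTCACTTTCattgtcttaa
All 5 of these genes had their highest ratio on oxaliplatin replicate 2, at 1.55 for Ifit3, 2.24 for Irf7, 1.64 for Oas1a, 1.97 for Rsad2 and 1.30 for Gbp2, as Cxcl10 did. On vehicle replicate 2 they stood at -1.34, -1.06, -1.44, 0.41 and 0.073, where Cxcl10 stood at 1.01. Of the 25 other chemokines with an entry Ccl19 held the interferon response motif, and Ccl7, Cxcl1, Cxcl11 and Cxcl6 the NF-kB motif. Cxcl11, a neighbour of Cxcl10 on chromosome 14 (chr14:15973644-15973673, + strand), held the same 10 letters as the first NF-kB match of Cxcl10, again in capitals.
Cxcl11: gagtcaagagGGGAAATTCCtgactctctg

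Cxcr3, the receptor of CXCL10 on T cells, was not measurable beyond background on the oxaliplatin arrays. Its Cy5 signals were 76 and 77.75 units on the oxaliplatin arrays and 104 and 81.5 on the vehicle arrays, and its Cy3 signals were 62.5 and 49.5 against 61 and 47.5. In either channel 0 of 2 spots were well above background on each oxaliplatin array and 1 of 2 on each vehicle array. In normalised Cy5 the difference was -0.051 (95% interval -0.25 to 0.15, limma adjusted p = 0.711). The log2 ratio was 0.071 and 0.035 on the oxaliplatin arrays and 0.059 and 0.064 on the vehicle arrays (limma adjusted p = 0.981). Signals this close to background could not show a difference, while the Cxcl10 probe was well above background in every spot.

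Set together, none of the 10 genes differed between oxaliplatin and vehicle arrays in the ratio, and none of all 22817 genes tested did (0%) at a limma adjusted p under 0.05, while 3341 (14.6%) had an unadjusted p under 0.05. Groups did not overlap for 5 of the 10 (50%), against 49.2% of all genes, so this share lay at the background. Cxcl12, Cxcr4 and Cx3cr1 were the 3 on the higher side, where the background was 27%, and Ccr2 and Cxcl13 the 2 on the lower side, where it was 22.2%. The signs were 5 higher and 5 lower, with a median difference of 0.0089 beside 0.0055 over all genes. Ligand and receptor had the same sign in 4 of the 5 pairs, the exception being Cxcl10 and Cxcr3, although Ccl2, Ccr2 and Cx3cl1 each changed sign under another scaling or with the scanner software's ratio, and the Cxcl12 probes opposed each other. In Cy5 alone 6 of the 10 did not overlap, against 59.9% of all genes, and 1, Cxcl10, had an unadjusted p under 0.05. In Cy3 alone 4 did not overlap, against 58.4% of all genes. Cxcr4 and Cxcl13 were the 2 with an unadjusted limma p under 0.05 there, against 20.9% of all genes. Cxcl13 was not well above background in Cy3 on oxaliplatin replicate 2. Under median centring, the ratio differed by -0.49 for Cxcl13, -0.47 for Cxcr5, -0.55 for Cxcr3, 0.23 for Cx3cr1 and 0.30 for Cxcr4, and again none of the 10 passed the adjusted test. No gene of the 22817 passed it in either channel (0% in each).

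**Figure D5:**
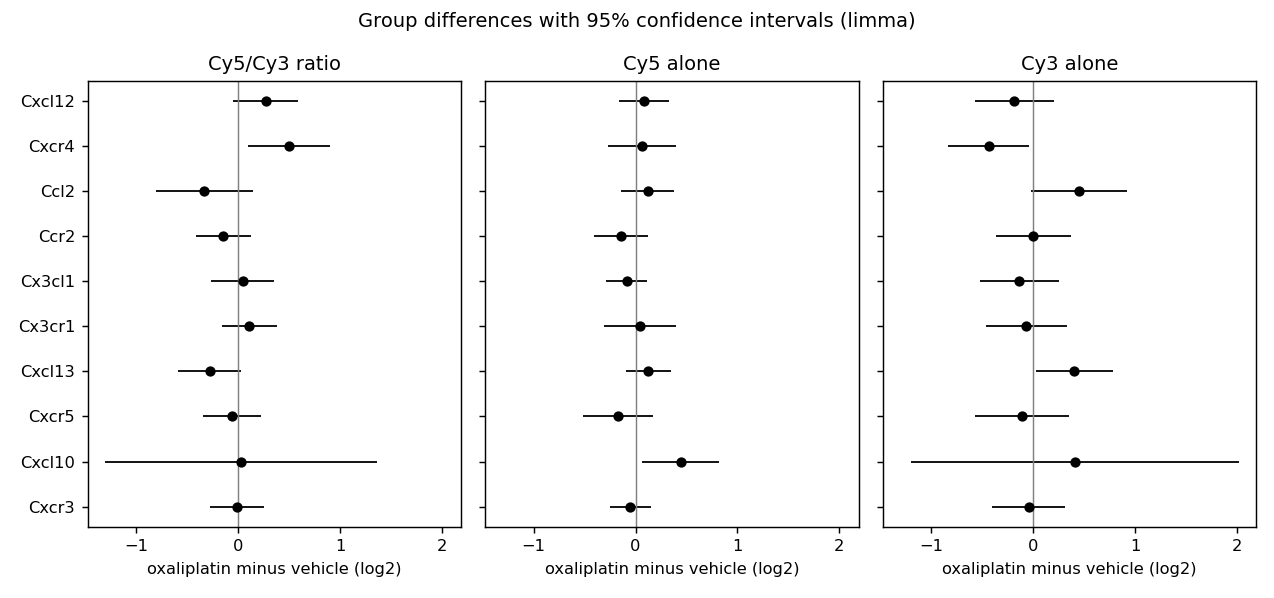
Difference between oxaliplatin and vehicle arrays (oxaliplatin minus vehicle, log2) of the 10 genes in the Cy5/Cy3 ratio, in normalised Cy5 alone and in normalised Cy3 alone, with points at the limma estimate and lines for the 95% confidence interval (n = 2 arrays per group). Cxcr4 has an interval of the ratio above 0 (0.10 to 0.90), and the Cxcl10 intervals of the ratio (-1.31 to 1.36) and of Cy3 are the widest.

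In the comparison of channels, all 10 genes had a mean log2 Cy5/Cy3 ratio above 0, and 4 were called higher in Cy5 (Ccl2, Cx3cl1, Cx3cr1 and Cxcl13) with none called lower. Over all genes 55.6% were called, 29.3% higher and 26.3% lower in Cy5. The ratio was above 0 on all 4 arrays for 6 of the 10, against 34% of all genes. They include Cxcr3, which was well above background in neither channel on the oxaliplatin arrays. Also among them are Ccr2 and Cxcl13, whose Cy3 was not well above background on oxaliplatin replicate 2. Signal over background limits these signs. The median of the 10 was 0.28 beside 0.029 over all genes, and with median centring the ratios of Ccr2, Cxcr3, Cxcr4 and Cxcr5 were below 0, those of Cxcr3 (-0.48, limma adjusted p = 0.0080) and Cxcr5 (-0.32, limma adjusted p = 0.0153) called lower. In each pair the ligand's ratio exceeded the receptor's except for Cxcl12 and Cxcr4, and there only with the brighter Cxcl12 probe. That probe stood at 0.085 and Cxcr4 at 0.10 (0.42 and -0.018 with median centring). The other Cxcl12 probe stood at 2.37, above Cxcr4. The receptors Ccr2, Cxcr5 and Cxcr3 were faint, which limits the comparison of their pairs.

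Further chemokines were mostly higher in Cy5 as well. Of 32 listed, 30 had a probe and 27 were tested. Of these, 16 were called higher and 0 lower in Cy5 (against 29.3% and 26.3% of all genes), with a median ratio of 0.41. Among the 16, Ccl1 and Ccl21 were well above background in Cy3 on no array. Ccl7, Ccl11, Ccl12, Cxcl2 and Cxcl9 were not well above it in Cy3 on oxaliplatin replicate 2. Signal over background limits this count. Between groups 5 of the 27 tested were higher and 22 lower with a median of -0.085. The groups did not overlap for 7, 1 higher and 6 lower, a share of 25.9% against 49.2% of all genes. Of the genes named by smallest p, Ccl19, which guides dendritic and T cells through CCR7, had ratios of 1.47 and 1.82 on the oxaliplatin arrays and 2.28 and 2.07 on the vehicle arrays. Its difference of -0.53 ± 0.16 did not pass (unadjusted p = 0.0121, limma adjusted p = 0.296), and its mean was a 3.76-fold excess in Cy5. Ccl6 followed at -0.45 ± 0.19 without overlap, and Ccl3 at -0.29 ± 0.17 with overlap. On the higher side Ccl25 differed by 0.12 without overlap, and Ccl9 and Cxcl6 by 0.085 each with overlap. Ccl25 lay near background, with Cy5 well above it on oxaliplatin replicate 1 and vehicle replicate 2 only. Its Cy3 was well above background on neither oxaliplatin array. Cxcl6 was well above background in neither channel on oxaliplatin replicate 2.

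Of 19 further chemokine receptors 16 had a probe and 13 were tested. Between groups 6 were higher and 7 lower, with a median of -0.024. In the channel comparison 7 were called higher and 2 lower in Cy5, against 29.3% and 26.3% of all genes. Of the 7 called higher, Ccr4 was well above background in Cy3 on no array and in Cy5 on neither oxaliplatin array. Cxcr1 was well above it in Cy3 on neither oxaliplatin array, and in Cy5 not on oxaliplatin replicate 2. Ackr2 was not in Cy3 on oxaliplatin replicate 2. Signal over background limits this count. Ccr9 and Ccr10 differed by -0.26 and -0.20 with overlap. Cxcr6 and Ccrl2 differed by 0.24 and 0.15 without overlap. Cxcr6 was faint on the oxaliplatin arrays, at 73.5 and 73.75 units in Cy5 and 62.5 and 50 in Cy3. Its Cy3 was well above background on neither of them, and its Cy5 was not on oxaliplatin replicate 2. Normalised Cy5 of Cxcr6 differed by -0.26.

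Of 31 listed genes that carry the chemokine signal, 28 were tested, 15 higher and 13 lower between groups with a median of 0.012. The groups did not overlap for 12 of them, 8 higher and 4 lower, a share of 42.9% against 49.2% of all genes. An unadjusted limma p under 0.05 was reached by 4 higher and 0 lower, against 2006 higher and 1335 lower of all 22817 genes. Beside Adam17 the smallest p on the higher side belonged to Ptk2b, the calcium-dependent kinase PYK2, with ratios of 2.42 and 2.25 on the oxaliplatin and 1.79 and 1.98 on the vehicle arrays (0.45 ± 0.13, unadjusted p = 0.0119, limma adjusted p = 0.296). Gnb2, a G protein beta subunit, differed by 0.45 ± 0.14 (limma adjusted p = 0.305). By channel, normalised Cy5 differed by 0.10 for Ptk2b and by -0.32 for Gnb2, and normalised Cy3 by -0.35 and -0.76. On the lower side stood Arrb1, which encodes beta-arrestin 1 and switches receptors off, at -0.35 ± 0.17, the G protein Gnai3 at -0.26 ± 0.13, both without overlap, and the receptor kinase Grk3 at -0.37 ± 0.18 with overlap. For Arrb1, Gnai3 and Grk3 normalised Cy5 differed by -0.26, 0.22 and 0.16, and normalised Cy3 by 0.093, 0.48 and 0.53. In the channel comparison 13 of the 28 were called higher in Cy5 and 6 lower, against 29.3% and 26.3% of all genes. Of the 13, Mmp9 was well above background in Cy3 on neither oxaliplatin array. Dpp4, the protease that trims and inactivates CXCL12 and CXCL10 and was picked out for that after its value was seen, had ratios of 3.97 and 3.59 on the oxaliplatin and 3.61 and 3.95 on the vehicle arrays, a 13.7-fold excess in Cy5. Rgs4, which shortens G protein signals, had an 8.19-fold excess and was likewise chosen after its value was seen.

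Marker lists of the cells around these genes moved unequally, and their part in the differences above was not tested. Between groups 9 of 10 astrocyte markers had higher ratios on the oxaliplatin arrays, with a median of 0.42, and 8 of the 10, 7 higher and 1 lower, did not overlap (80%, against 49.2% of all genes), as for Agt at 0.54, S100b at 0.61 and Aqp4 at 0.42. Their summed normalised Cy5 signal was 197726 and 217752 on the oxaliplatin and 192558 and 190130 on the vehicle arrays, and their summed normalised Cy3 signal 306734 and 296210 against 363443 and 393389. By the list medians they differed, like Cxcr4, in normalised Cy3 (-0.47) more than in Cy5 (-0.016). Aqp4, Gja1 and Slc1a2 instead had the larger shift in Cy5, Aqp4 at 0.59 against 0.17 in Cy3. In the channel comparison 8 of the 10 were called lower in Cy5, against 26.3% of all genes. Neuron markers had a median difference of -0.029 and a median ratio of 0.0072, with Uchl1 at 1.39, Snap25 at -0.058 and Eno2 at -0.17. Of the sensory ganglion and Schwann cell markers, Calca had a mean ratio of 5.18, Prph of 2.73 and Pmp22 of 2.69. Endothelial and meningeal markers had a median ratio of 0.32, with Col1a2 at 2.71, Kdr at 0.37 and Cldn5 at -1.18.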

How the data were processed

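Total RNA of 4 rat dorsal horn samples was measured on 2-colour Agilent arrays. Each scanner file gives, per the file headers, the median intensity of a spot and of its local background in both dyes, a processed intensity, a log10 ratio of Cy5 over Cy3, and flags. Agilent Feature Extraction is named as version 10.7.1.1 in those headers, while 8.5.1.1 stands in the submitters' processing notes. The deposited value table holds the same log10 ratios (largest gap 0.0050) with array medians of -0.00277, 0, -0.00492 and -0.00316. The accession column per the file headers named 18758 probes through the RefSeq gene table. The other columns used, per the file headers, hold flags and no signal.

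In limma 3.58.1 under R 4.3.3, median signals were corrected by normexp (offset 50) and log2 ratios normalised by loess within arrays. Control spots (4259 an array) had weight 0 and were left out, as were the outlier spots (1730 on any array), and spots of a probe were averaged. Probes were kept with Cy5 well above background in at least 0.5 of their spots on at least 2 arrays (25998), and the probe with the highest mean signal stood for a gene (22817). Single channels were normalised by Aquantile. The fit used lmFit and eBayes (residual df 2, prior df 4.74), two-sided with Benjamini-Hochberg adjustment over all genes at 0.05. Duplicate spots differed with an SD of 0.095 to 0.10. In simulated arrays of the ratio comparison over 22817 genes, 69% of 100 genes changed by 1 (log2) and 99% of 100 changed by 2 were recovered, with 5 false calls. The simulation took its spread from the fitted model, with independent normal errors and no slide or array effect. It therefore cannot show what share would be recovered on the real arrays, where slide and group coincide.

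The 10 genes and all lists were chosen with earlier results of these data known. The 10 genes were named whatever their values, of 3 chemokine lists up to 3 genes a direction by smallest unadjusted p, and of each marker list the 3 brightest. Others are named with their reason, and 3 genes picked in this way are not reported here. Genes of like pattern were not sought, since likeness would rest on 4 arrays. Replicate numbers did not pair the arrays (correlation of deviations from group means -0.22). Alternatives tried were the scanner software's ratio, median centring, scaling between arrays, no background correction, other filters, other ways to join probes, leaving out each array and blocks.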

Additional observations from a re-analysis of the deposited data

How the results depend on the processing

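No gene of the 10 passed the test between groups in the ratio under any setting run. The calls of Ccl2, Cx3cl1, Cx3cr1 and Cxcl13 in Cy5 over Cy3 held in each setting that gave them a value. Leaving out 1 array moved the number of genes called between groups to between 2 and 930 in the ratio (930 without oxaliplatin replicate 1), 0 to 5578 in Cy5 and 0 to 2140 in Cy3, with the lone array assumed to vary like the others. The group difference changed sign when 1 array was left out for Cxcr5 (-0.14 to 0.017), Cx3cl1 (-0.058 to 0.15), Cxcl10 (-0.86 to 0.91) and Cxcr3 (-0.027 to 0.0096) in the ratio, for Cxcr4 (-0.077 to 0.20) and Cx3cr1 (-0.11 to 0.20) in Cy5, and for Ccr2 (-0.063 to 0.068), Cxcl10 (-0.43 to 1.26), Cx3cr1 (-0.17 to 0.040) and Cxcr5 (-0.30 to 0.070) in Cy3. The mean ratio did so for Cxcr5 (-0.032 to 0.046) and Cxcr4 (-0.012 to 0.21). Cxcl10 was called higher in Cy5 over Cy3 without oxaliplatin replicate 1 (0.99) or vehicle replicate 1 (0.78), and higher on oxaliplatin arrays in Cy5 without vehicle replicate 1 (0.61).

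Other settings turned these signs, and the cause was not tested. The scanner software's ratio gave a difference of 0.094 for Ccr2 and -0.026 for Cx3cl1 and a mean of -0.15 for Cxcr5, and called Ccr2 at 0.65. Its processed signal gave -0.043 for Cxcl13 and -0.22 for Cxcr4 in Cy5 and -0.66 for Ccr2 in Cy3. Median centring gave mean ratios of -0.23 for Ccr2, -0.48 for Cxcr3, -0.018 for Cxcr4 and -0.32 for Cxcr5, called Cxcr3 and Cxcr5 lower (adjusted p = 0.0080 and 0.0153) and called Cxcl12 higher at 0.42. Without background correction Cxcr5 stood at -0.015 and Ccr2 was called at 0.22. Scaled ratios gave 0.19 for Ccl2 between groups, quantile normalisation -0.0084 for Ccr2 in Cy3, and the mean over probes of Cxcl12 -0.031 in the ratio and 0.055 in Cy3, with a called mean ratio of 1.23. The replicate block gave 3 genes called between groups, and Cxcl10 an adjusted p of 0.0028 for its mean ratio. With crossed numbers, added after the data were seen, the replicate block called 537 genes. A random block for scan time could not be fitted. A filter on both channels left out the fainter genes. Signal over background limits Cxcr3, Ccr2, Cxcr5 and, in Cy3, Cxcl13. Of the other chemokines and receptors named with values, it limits Cxcr6, Ccl25 and Cxcl6 and, in Cy3, Ccl7, Ccl12, Cxcl9 and Cxcl11.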
